A study of Mus musculus with 4 samples.

Results

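The genes described here are the urea transporter Slc14a1, its paralogue Slc14a2 and 8 aquaporins (Aqp1, Aqp3, Aqp4, Aqp5, Aqp7, Aqp8, Aqp9 and Aqp11), 10 of the 19938 genes tested. They were selected on earlier results of these arrays: Slc14a1 had the largest difference of all genes in the same contrast, and the others were added as its family and as the related water and glycerol channels. A gene was represented by the array row whose annotation gives only its symbol, and each of the 10 had 1 such row. RNA was measured on 4 Affymetrix mouse arrays, 2 of KrasD12 lung fibroblasts (samples A and B, line 493) and 2 of wild-type (WT) lung fibroblasts (samples A and B, line 494), both untreated. The study's design text calls the mutant SKY (K-RasG12D), and the lines were grown out of collagenase-digested lungs of mice aged 3 to 4 weeks. G12D keeps the Ras protein in its active state, and the sources used here do not give the driver of the mutant allele. With 1 numbered line per genotype, an effect of the allele and a trait of the line cannot be told apart. Whether A and B were grown separately is not recorded either. Each p below therefore sets the group difference only against the spread between A and B, pooled in part over all genes. That spread may be technical.

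Urea transporters are membrane proteins that let urea pass along its gradient. Slc14a1 encodes UT-B, known from red blood cells and the vessels of the kidney medulla, and Slc14a2 encodes UT-A, known from the kidney collecting duct. Aquaporins are channels of another protein family: Aqp1, Aqp4, Aqp5 and Aqp8 belong to the group that mainly passes water, Aqp3, Aqp7 and Aqp9 also pass glycerol and are called aquaglyceroporins, and Aqp11 is an unorthodox member of intracellular membranes. In the lung Aqp1 is known from endothelium, Aqp5 from alveolar type I cells, and Aqp3 and Aqp4 from airway epithelium.

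All values are the authors' deposited log2 expression values unless another scaling is named, and every difference is KrasD12 minus WT. Most dim genes read higher in the KrasD12 columns, with a median difference of 0.33 over 1210 rows of olfactory and vomeronasal receptors, genes not expected in fibroblasts, against 0.26 over all tested genes. After quantile normalization of the 4 columns these medians were 0.01 and -0.004, and after cyclic loess normalization 0.02 and -0.006. Small differences are therefore given beside that of genes of like mean (a mean over the 4 samples within 0.5) and beside the quantile value. The dim level, the 95th percentile of the receptor rows' means, was 5.15. A gene was called at an adjusted p under 0.05 in limma across all genes, and a gene outside the 10 is said to have risen or fallen only if it was called in the same direction on deposited and on quantile-normalized values. Levels of different genes come from different probes and were not ranked against each other. In RNA of whole cultures, a change in the share of expressing cells and a change per cell cannot be told apart.

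Slc14a1 was bright in both KrasD12 samples and near background in both WT samples. It read 11.33 in KrasD12 A and 11.29 in KrasD12 B, against 5.44 in WT A and 5.44 in WT B. The groups were separated by 5.85 at their nearest samples, while A and B differed by 0.04 in KrasD12. The means were 11.31 ± 0.03 in KrasD12 and 5.44 ± 0.00 in WT (SD, n = 2 each), a difference of 5.87 or 58.5-fold. The WT mean lay between the 95th and the 99th percentile of the receptor rows (5.15 and 6.17), so the WT level is little above background and the fold depends on it. Quantile normalization gave 5.75 (53.8-fold) and cyclic loess 5.72. None (0) of the 2859 genes of like mean and none of the receptor rows had a difference as large, and the median difference of genes of like mean was 0.15. These values chose the gene, so they are a description and carry no test.

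**Figure D1:**
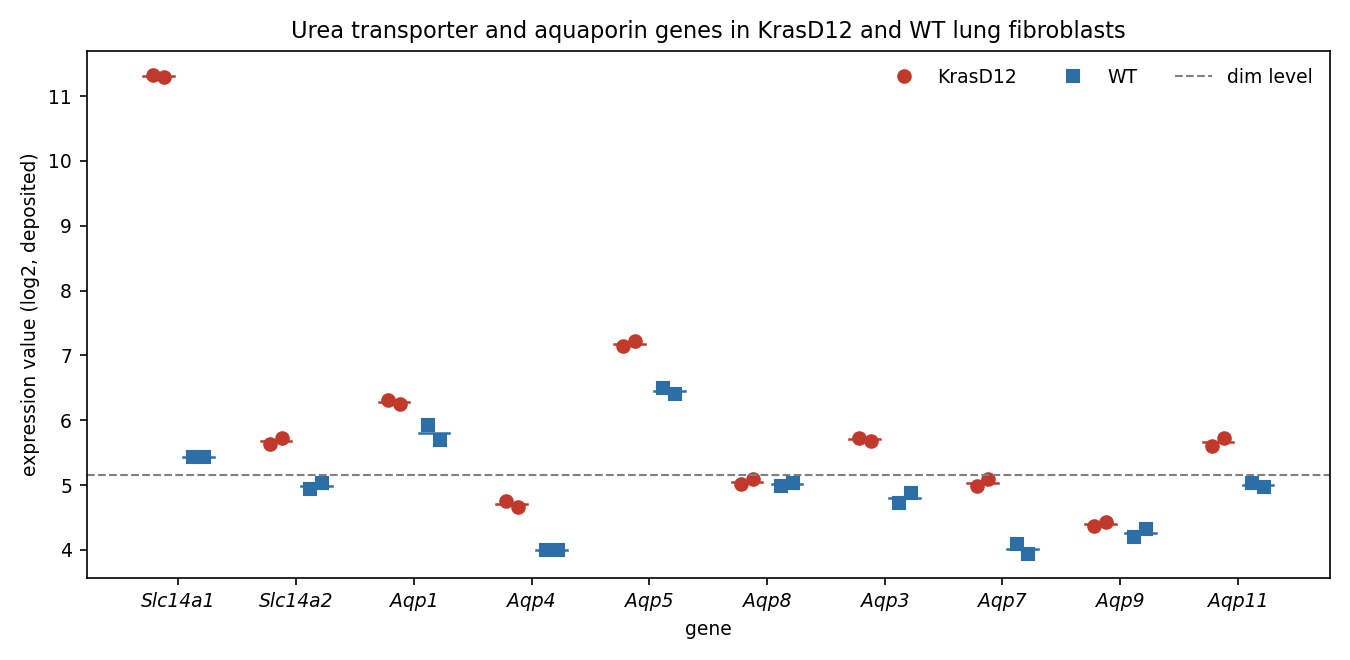
Deposited log2 expression values (vertical axis) of the 10 genes (horizontal axis) in KrasD12 samples A and B (red circles) and WT samples A and B (blue squares), with the group means as short lines and the dim level of 5.15 dashed. Slc14a1 lies above 11 in KrasD12 and at 5.44 in WT, while every value of the other genes lies between 3.94 and 7.22.

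The 3 genes whose 4 values, centred on their own means, lay nearest to those of Slc14a1 were Frzb, Trim12a and AI593442, at Euclidean distances of 1.27, 2.11 and 2.15 over the 4 samples. Frzb, a secreted WNT antagonist, read 10.35 and 10.26 in KrasD12 against 5.79 and 5.60 in WT. With 2 groups of 2 samples this likeness amounts to a large difference and a small spread. The difference of Frzb was 4.61 and those of Trim12a and AI593442 were 3.77 and 3.73, all smaller than that of Slc14a1.

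Markers of fibroblasts and smooth muscle were read beside Slc14a1, as were those of erythroid cells, astrocytes and chondrocytes, in which Slc14a1 is known. Single markers are named here and below after their values were seen. Fibroblast markers were bright in all samples: 9 of 9 lay above the dim level, with list means of 11.04 to 11.06 in KrasD12 and 11.21 in both WT samples. On both scalings 3 of the 9 fell (Col1a1 by 0.59 (-0.595), Pdgfrb by 0.49 (-0.495) and Thy1 by 0.31) and Pdgfra rose by 0.26. The 4 smooth muscle and myofibroblast markers, all above the dim level, fell, with list means of 7.73 to 7.87 in KrasD12 and 9.32 (9.325) to 9.45 in WT. Of 6 erythroid markers 3 had a row used here, of which 1 lay above the dim level, with list means of 5.42 to 5.59 in KrasD12 and 4.89 to 5.003 in WT. Among them Alas2, the heme synthesis enzyme of red cell precursors, averaged 5.58 in KrasD12 and 4.64 in WT and rose on both scalings, while Slc4a1, the red cell anion exchanger, averaged 5.69 and 5.32 and did not. Of 5 astrocyte markers 3 lay above the dim level, with list means of 5.58 to 5.61 in KrasD12 and 5.36 to 5.45 in WT; Gfap averaged 4.91 and 4.57, the glutamate transporter gene Slc1a2 (6.09 and 5.12) and S100b (5.21 and 4.34) rose, and Aldh1l1, a folate enzyme also used as an astrocyte marker, fell by 1.54. Of 5 chondrocyte markers 4 lay above the dim level, with list means of 6.35 to 6.48 in KrasD12 and 6.13 to 6.17 in WT, and 0 rose or fell. The means of Alas2, Gfap and S100b over the 4 samples lay below the dim level. Summed on the linear scale, the erythroid markers came to 130 to 146 in KrasD12 and 90.8 to 97.9 in WT. The astrocyte sums were 260 to 267 and 357 to 376, and the chondrocyte sums 481 to 517 and 441 to 447. Most of the astrocyte sum in WT came from Aldh1l1. The part of these markers in the Slc14a1 difference was not tested.

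Slc14a2 is the nearest tested gene on one side of Slc14a1 in the mouse gene order. It read 5.63 and 5.73 in KrasD12, against 4.94 and 5.04 in WT. The samples of the groups did not overlap, and the KrasD12 samples lay above the dim level while the WT samples lay below it. Deposited values gave a difference of 0.69 and quantile-normalized values 0.30, and 22.7% of 3461 genes of like mean had one at least as high.

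The flanks of Slc14a1 on chromosome 18 show how far the difference extends along the gene order. Of the 5 tested genes on each side, 7 were called higher and 0 lower on the deposited values (50.1% and 11.9% of all tested genes), and 4 rose on both scalings (22.4% of all tested genes): Setbp1, Pstpip2, Slc14a2 and Epg5. Setbp1, which encodes a SET-binding nuclear protein, averaged 9.38 in KrasD12 and 8.64 in WT, a difference of 0.73 ± 0.08 (limma's moderated SE, as for each ± of a difference; n = 2 each, limma adjusted p = 0.00149), or 0.65 after quantile normalization. Pstpip2, an adaptor of the actin cortex, averaged 5.20 and 4.49 with a difference of 0.71 ± 0.08 (limma adjusted p = 0.00167; 0.30 quantile). Epg5, an autophagy tether, averaged 8.68 and 8.26 with a difference of 0.41 ± 0.07 (limma adjusted p = 0.00497; 0.29 quantile). F830208F22Rik (0.44), Gm6133 (0.29) and Pard6g (0.29) were called on the deposited values only. Siglec15, the nearest tested gene on the other side, averaged 6.91 in KrasD12 and 6.72 in WT and was not called (limma adjusted p = 0.0962). The median over the 10 flanking genes was 0.36 deposited and 0.07 quantile, so the difference of 5.87 stood at Slc14a1 while that of its flanks ran from -0.04 (-0.035) to 0.73. Leaving out KrasD12 A left 2 of the flanking genes called higher, and leaving out KrasD12 B, WT A or WT B left 0.

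**Figure D2:**
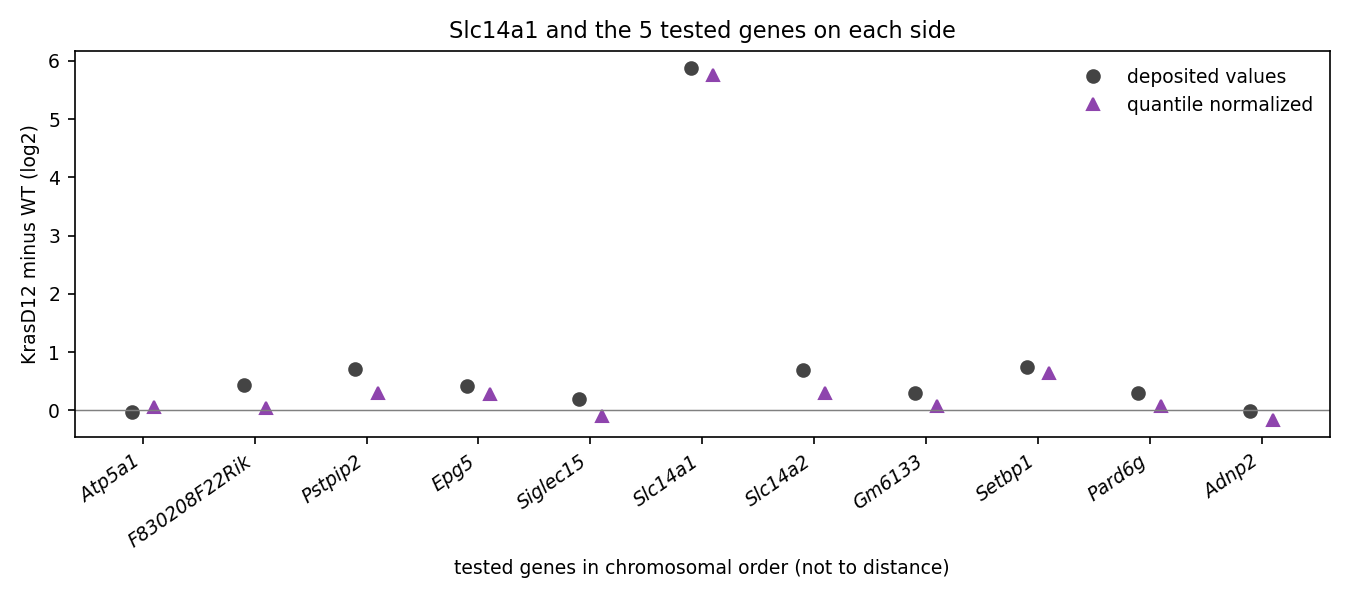
KrasD12 minus WT differences on the log2 scale (vertical axis) of Slc14a1 and the 5 tested genes on each side in gene order (horizontal axis, not to distance), on deposited values (grey circles) and after quantile normalization (purple triangles). Slc14a1 stands at 5.87 and 5.75, and each flanking gene lies below 0.74 on both scalings.

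Taking all 10 genes, 8 were called higher on the deposited values, where 50.1% of all tested genes were called higher, and 0 were called lower, where 11.9% of all tested genes were. On both scalings 7 were called higher (22.4% of all tested genes) and 0 lower (11.5%). Quantile values alone gave 7 higher and 2 lower (Aqp8 and Aqp9), beside 4485 and 4861 of the 19938 tested genes. For 9 of the 10, both KrasD12 samples lay above both WT samples, as for 64.3% of all tested genes. Nothing is read from these counts, since the contrast was used to choose the genes. The median difference of the 9 genes other than Slc14a1 was 0.69 deposited and 0.29 (0.295) quantile, against 0.26 and -0.004 over all tested genes. Genes of like mean had deposited medians above that 0.26 for each of the 9, from 0.275 (Aqp5) to 0.405 (Aqp8). A mean above the dim level was found for 6 genes (Slc14a1, Slc14a2, Aqp1, Aqp3, Aqp5 and Aqp11). On the deposited values Aqp4, Aqp7, Aqp8 and Aqp9 lay below it in every sample. Leaving out KrasD12 A left 6 of the 8 calls and leaving out KrasD12 B left 4. Leaving out WT A or WT B left limma with 0 calls among all genes, with 9846 and 10022 genes, 8 of the 10 among them each time, at p under 0.05 before adjustment, so every call below rests on having both WT samples.

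**Figure D3:**
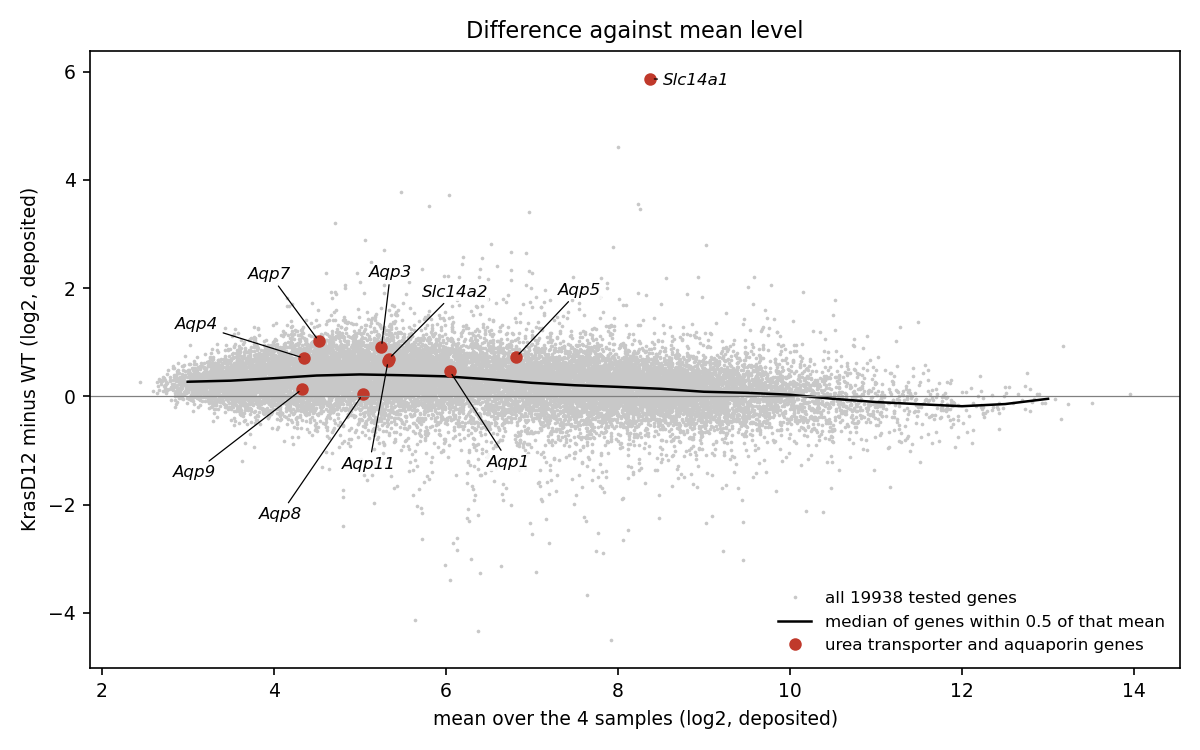
KrasD12 minus WT difference (vertical axis, log2, deposited) against the mean over the 4 samples (horizontal axis, log2) for all 19938 tested genes (grey), with the median of genes of like mean (black line) and the 10 genes in red. Slc14a1 lies above every grey point, and the other 9 lie inside the cloud between 0.04 and 1.02.

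Among the water channels, Aqp5 had the largest difference. It read 7.14 and 7.22 in KrasD12, against 6.50 and 6.41 in WT, and all 4 values lay above the dim level. The KrasD12 samples were the higher ones by at least 0.64, with A and B 0.08 to 0.09 apart. The difference was 0.72 (0.725, 1.65-fold) deposited and 0.44 quantile, and 12.4% of 2737 genes of like mean had one at least as high.

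Aqp1 read 6.31 and 6.25 in KrasD12, against 5.93 and 5.69 in WT. WT A lay nearest to the KrasD12 samples, 0.32 below them. The difference of 0.47 was close to the median of 0.36 (0.365) of genes of like mean and came to 0.12 after quantile normalization, where the ranges of the groups overlapped (6.15 and 6.06 in KrasD12, 6.11 and 5.87 in WT). Of 6 endothelial markers 2 lay above the dim level, with list means of 5.04 to 5.11 in KrasD12 and 4.73 to 4.89 in WT and linear sums of 225 to 236 and 177 to 198, and 0 rose or fell. Pecam1, Cdh5, Kdr and Emcn lay below the dim level. Tek (5.92 and 5.83 in KrasD12, 5.65 and 5.38 in WT) and Cldn5 (5.92 and 6.16, 5.66 and 5.60) lay above it in every sample. Tek, Cldn5 and Pecam1 were called higher on the deposited values only. The part of these markers in the Aqp1 difference was not tested.

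Aqp4, the channel of astrocyte end feet and airway epithelium, read 4.75 and 4.66 in KrasD12, against 4.00 and 4.00 in WT. All 4 values lay under the dim level, and the KrasD12 samples were the higher ones. The difference was 0.71 (0.705) deposited and 0.29 (0.295) quantile, and 12.1% of the receptor rows had a difference at least as high. Aqp8, which also conducts ammonia and hydrogen peroxide, read 5.01 and 5.10 in KrasD12, against 4.99 and 5.04 in WT, and its groups overlapped. Its difference of 0.04 turned to -0.36 after quantile normalization and -0.37 after cyclic loess, since genes of like mean had a median of 0.41 (0.405). Aqp8 was not called on the deposited values and was called lower on the quantile values. Its direction thus depends on the scaling.

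Alveolar type I cells, the lung cells known for Aqp5, were checked with 5 markers, of which 3 lay above the dim level. Their list means were 6.41 to 6.45 in KrasD12 and 5.91 to 5.96 in WT, with linear sums of 1530 to 1540 and 1080 to 1170. Most of each sum came from Pdpn alone. Pdpn, a mucin-type protein that fibroblasts also express, averaged 10.4 in KrasD12 and 9.92 in WT and rose on both scalings, as did Rtkn2 (5.04 and 4.12), while Ager, the receptor that marks these cells, averaged 6.81 and 6.27 and was called on the deposited values only. Cldn18 (5.61 and 5.17) was likewise called on the deposited values only, and Hopx lay at 4.31 and 4.19. Rtkn2 and Hopx lay below the dim level in every sample. The part of these markers in the Aqp5 difference was not tested.

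Of the aquaglyceroporins, Aqp7 and Aqp9 stayed under the dim level in all samples and Aqp3 in WT, so these readings lie in the range of background signal. Within the 10 genes, Aqp7 and Aqp3 had the largest differences after Slc14a1 (ranks 670 and 1076 over all tested genes). Aqp7, the glycerol exit channel of fat cells, read 4.98 and 5.09 in KrasD12, against 4.09 and 3.94 in WT. The groups lay 0.89 apart, but every value was under the dim level. The difference was 1.02 deposited, 0.62 quantile and 0.64 after cyclic loess, and 2.23% of the receptor rows and 5.04% of 3233 genes of like mean had one at least as high.

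Aqp3, a water and glycerol channel of basal epithelial cells, read 5.73 and 5.68 in KrasD12, against 4.72 and 4.88 in WT. The KrasD12 samples lay above the dim level and the WT samples below it. The difference was 0.91 (0.905) deposited and 0.51 quantile, and 346 of 3456 genes of like mean had one at least as high. Aqp3 and Aqp7 thus lay just above the 95th percentile of the receptor rows' differences (0.89) on the deposited values, where the other 6 aquaporins lay below it. After quantile normalization that percentile was 0.53, above the value of Aqp3 and below that of Aqp7.

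Aqp9, the glycerol channel of hepatocytes, read 4.37 and 4.43 in KrasD12, against 4.20 and 4.33 in WT, all under the dim level. The samples of the groups lay only 0.04 apart. The difference of 0.14 (0.135) turned to -0.27 after quantile normalization and -0.23 after cyclic loess, against a median of 0.37 for genes of like mean. Aqp9 was not called on the deposited values and was called lower on the quantile values. Of 5 leukocyte and macrophage markers, read for Aqp9, 3 lay above the dim level. Their list means were 5.13 to 5.19 in KrasD12 and 5.02 to 5.04 in WT. Among them 1 rose (Adgre1) and 2 fell (Csf1r and Cd14). Their part in the Aqp9 difference was not tested.

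Of 5 adipocyte markers, the cells known for Aqp7, 3 lay above the dim level, with list means of 5.07 to 5.14 in KrasD12 and 5.16 to 5.18 in WT and linear sums of 197 to 206 and 189 to 197. Plin1, a lipid droplet coat protein, averaged 6.21 in KrasD12 and 5.32 in WT and rose. Adipoq (3.74 and 4.13) and Lpl, lipoprotein lipase (4.83 and 5.74), fell, and Fabp4 averaged 5.02 and 5.01. Adipoq and Fabp4 lay below the dim level in every sample. Of 6 markers of basal and ciliated airway epithelium, cells known for Aqp3, 3 lay above the dim level, with list means of 5.23 to 5.26 in KrasD12 and 4.94 to 4.99 in WT and linear sums of 229 to 233 and 188 to 195, and 0 rose or fell. Their part in the Aqp7 and Aqp3 differences was not tested.

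Aqp11, a channel of the endoplasmic reticulum, read 5.60 and 5.72 in KrasD12, against 5.03 and 4.97 in WT. The KrasD12 samples lay above the dim level and the WT samples below it. The difference was 0.66 deposited and 0.27 quantile, and 25.1% of 3465 genes of like mean had one at least as high.

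**Figure D4:**
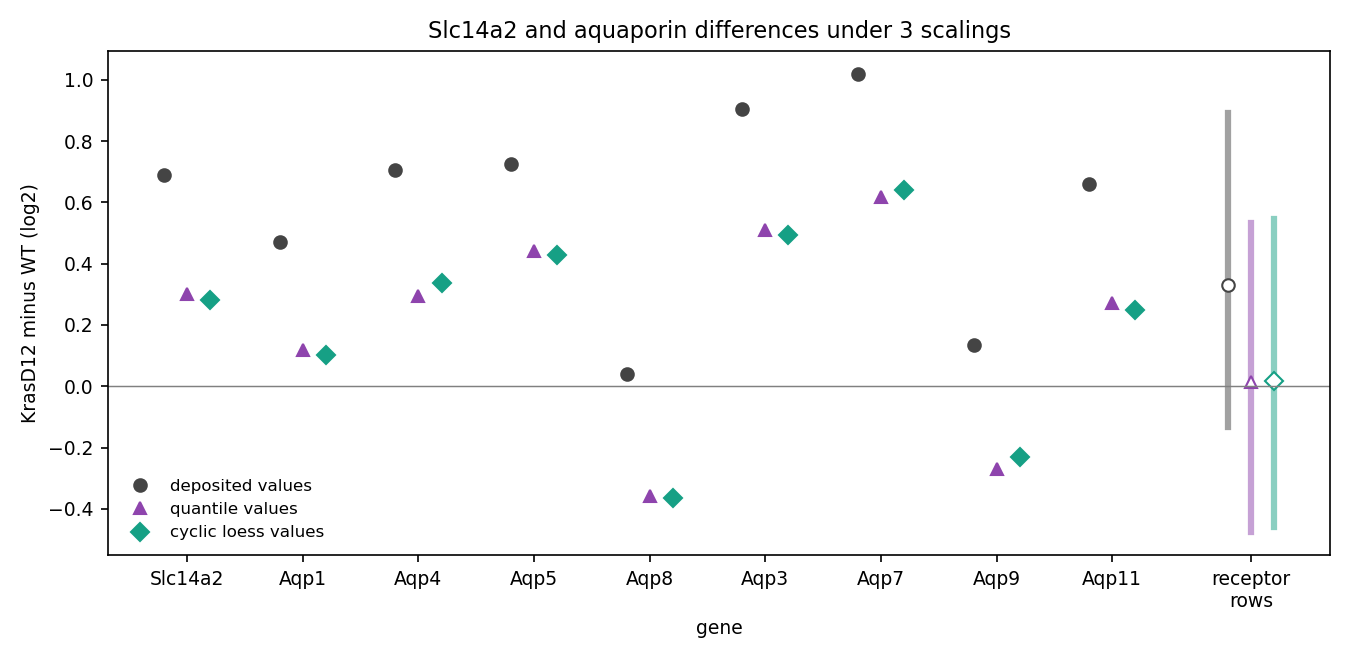
KrasD12 minus WT differences on the log2 scale (vertical axis) of Slc14a2 and the 8 aquaporins (horizontal axis) on deposited values (grey circles), after quantile normalization (purple triangles) and after cyclic loess (green diamonds). The bars at the right span the 5th to 95th percentile of the 1210 receptor rows with their median as an open mark, -0.13 to 0.89 deposited and -0.48 to 0.53 quantile. Aqp7 lies above the bar on every scaling, and Aqp8 and Aqp9 lie below 0 on the rescaled values.

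The promoters of Aqp7, Aqp3 and Aqp5 are shown because these 3 aquaporins had the largest differences after quantile normalization. Each run is RefSeq sequence of build GRCm38.p6, 250 bases before to 50 after the gene's start, 5′ to 3′ on the gene's strand. 4 motifs were searched on both strands, AP-1 (TGANTCA), the ETS core CCGGAA, the NFAT core TGGAAA and the GC box GGGCGG, of which the ETS and NFAT cores share the letters GGAA, and capitals mark the matches. Aqp7 has 2 starts in the table, and the upstream one is shown, minus strand, chr4:41048087-41048386. Aqp3 lies on the minus strand at chr4:41098134-41098433 and Aqp5 on the plus strand at chr15:99590778-99591077.
Aqp7: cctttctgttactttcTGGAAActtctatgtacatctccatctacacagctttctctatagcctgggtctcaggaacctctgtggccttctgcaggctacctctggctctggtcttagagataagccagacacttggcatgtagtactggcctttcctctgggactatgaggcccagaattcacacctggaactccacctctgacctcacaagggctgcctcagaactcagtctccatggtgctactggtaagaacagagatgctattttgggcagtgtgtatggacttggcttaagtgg
Aqp3: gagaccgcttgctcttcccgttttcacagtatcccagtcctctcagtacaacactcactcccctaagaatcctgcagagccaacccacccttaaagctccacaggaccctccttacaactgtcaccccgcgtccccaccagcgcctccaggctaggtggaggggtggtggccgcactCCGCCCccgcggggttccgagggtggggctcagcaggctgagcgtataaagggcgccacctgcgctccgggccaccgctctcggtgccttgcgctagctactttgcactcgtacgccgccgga
Aqp5: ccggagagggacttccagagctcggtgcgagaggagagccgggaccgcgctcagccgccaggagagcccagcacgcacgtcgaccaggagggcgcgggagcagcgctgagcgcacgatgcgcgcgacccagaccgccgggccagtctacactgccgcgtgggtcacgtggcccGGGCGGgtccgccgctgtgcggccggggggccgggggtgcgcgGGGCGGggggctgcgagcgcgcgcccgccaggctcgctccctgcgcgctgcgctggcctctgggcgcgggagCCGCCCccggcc

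The Aqp7 window holds 1 NFAT core, which begins at base -234 from the start, the Aqp3 window 1 GC box, and the GC-rich Aqp5 window (79.7% G and C, against a median of 52.7% for all promoters) 3 GC boxes. Over the promoters of the 7 aquaporins in the table (9 starts), AP-1 was found in 1 gene, the ETS core in 1, the NFAT core in 2 and the GC box in 3. Of 32841 promoters of the same length, 7.81% hold the AP-1 motif, 14.9% the ETS core, 21.4% the NFAT core and 35.7% the GC box. These matches describe letters in the windows.

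The 4 other aquaporin genes on the array are Mip, the lens fibre channel, Aqp2, the vasopressin-regulated channel of the collecting duct, Aqp6, a channel of kidney intercalated cell vesicles, and Aqp12, known from pancreatic acinar cells. On the deposited values 2 of the 4 were called higher and 0 lower, and on both scalings 1, Aqp6, rose, shares close to the 50.1% and 22.4% of all tested genes. Aqp6 read 4.72 and 4.74 in KrasD12, against 3.77 and 3.96 in WT, all under the dim level, a difference of 0.86 ± 0.09 (limma adjusted p = 0.00128; 0.47 quantile). Aqp2 read 6.71 and 6.77 in KrasD12, against 6.46 and 6.57 in WT, with a difference of 0.23 ± 0.07 (limma adjusted p = 0.045), and stood at -0.09 after quantile normalization. Aqp12 (0.08) and Mip (0.17) were not called, overlapped between the groups and stood at -0.27 and -0.25 after quantile normalization. With any single sample left out, 0 of the 4 were called.

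In the list of osmotic stress response and organic osmolyte uptake, Nfat5, Slc5a3, Slc6a6 and Sgk1 rose and Hspa4l fell. Of 9 listed genes 7 had a row used here, of which 4 rose, 1 fell and 2 did neither (5 higher and 1 lower deposited). Among all tested genes 22.4% rose and 11.5% fell (50.1% and 11.9% deposited), and median centring gave 3 higher and 2 lower in the list. Its median was 0.46 deposited and 0.30 quantile, beside 0.26 and -0.004 over all tested genes. Nfat5, the transcription factor of the hypertonic response, averaged 9.77 in KrasD12 and 9.05 (9.055) in WT and rose by 0.72 ± 0.07 (0.715; limma adjusted p = 0.00131), or 0.66 quantile. Slc5a3, the myo-inositol transporter, rose by 0.68 ± 0.07 (limma adjusted p = 0.00149; 0.55 quantile). Slc6a6, the taurine transporter, rose by 0.57 ± 0.07 (limma adjusted p = 0.00205; 0.50 quantile), and the kinase Sgk1 by 0.46 ± 0.07 (limma adjusted p = 0.00426; 0.30 quantile). In these 4 genes both KrasD12 samples lay above both WT samples, as for 64.3% of all tested genes, here by at least 0.38. The 4 were named for their calls, so nothing is read from this. All their values were above the dim level. Hspa4l, an osmotic stress chaperone named after its value was seen, fell by 0.39 ± 0.08 (limma adjusted p = 0.00796; -0.61 quantile). The betaine transporter Slc6a12 (0.33), likewise named afterwards, was called on the deposited values only. Leaving out KrasD12 A left 3 of the list called higher, leaving out KrasD12 B left 2, and leaving out WT A or WT B left 0, while 0 were called lower in each case.

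Among channels and cotransporters of cell volume, Lrrc8e and Wnk1 rose and Lrrc8d and Oxsr1 fell. Of 14 listed genes 12 had a row used here, of which 2 rose, 2 fell and 8 did neither (7 higher and 2 lower deposited), with a median of 0.25 deposited and 0.01 quantile. These counts lie near the shares over all tested genes, 22.4% and 11.5% on both scalings and 50.1% and 11.9% deposited. Lrrc8e and Lrrc8d encode subunits of the volume-regulated anion channel: Lrrc8e averaged 5.97 in KrasD12 and 5.10 in WT and rose by 0.88 ± 0.15 (0.875; limma adjusted p = 0.00558; 0.50 quantile), whereas Lrrc8d averaged 5.96 and 6.63 and fell by 0.68 ± 0.08 (-0.675; limma adjusted p = 0.00171; -1.004 quantile). The subunit gene Lrrc8b had a difference of 0.34 (0.335), called on the deposited values only. Oxsr1, a kinase that switches cation-chloride cotransporters, fell by 0.47 ± 0.06 (limma adjusted p = 0.00284; -0.52 quantile), and Wnk1, the kinase above it and named after its value was seen, rose by 0.33 ± 0.07 (0.325; limma adjusted p = 0.00969; 0.36 quantile). Without KrasD12 A 2 were called higher and 2 lower, without KrasD12 B 0 and 2, and without WT A or WT B 0 and 0.

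Of the urea cycle and arginine breakdown genes, which make the substrate of urea transporters, 9 of 10 had a row used here, and 2 rose, 0 fell and 7 did neither (4 higher and 0 lower deposited). The counts of higher genes lie near the shares over all tested genes, 22.4% on both scalings and 50.1% deposited. The list median was 0.24 (0.245) deposited and -0.13 quantile. Arg2, the mitochondrial arginase that releases urea from arginine, read 5.01 and 5.22 in KrasD12, against 4.42 and 4.20 in WT, so that only 1 value passed the dim level, and rose by 0.81 ± 0.11 (0.805; limma adjusted p = 0.00294; 0.39 quantile). Slc25a13, the mitochondrial aspartate and glutamate carrier, averaged 7.33 in KrasD12 and 6.58 in WT and rose by 0.74 ± 0.07 (limma adjusted p = 0.0012; 0.47 quantile). Arg1, the cytosolic arginase (0.45), and Nags, which makes the activator of the cycle (0.42), were called on the deposited values only, at 0.04 and 0.06 after quantile normalization. Without KrasD12 A 2 were called higher, without KrasD12 B 1, and without WT A or WT B 0.

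Genes of glycerol release and use, the solute of the aquaglyceroporins, gave 1 rise, 0 falls and 7 genes that did neither, of 8 with a row among 9 listed (5 higher and 0 lower deposited, median 0.35 deposited and 0.02 quantile). Over all tested genes 22.4% rose and 50.1% were called higher deposited. The list's count of rises lies below its share, and its deposited count lies somewhat above. Gpd2, the mitochondrial glycerol-3-phosphate dehydrogenase, averaged 8.52 in KrasD12 and 8.13 in WT and rose by 0.39 ± 0.08 (limma adjusted p = 0.00888; 0.25 quantile). Its cytosolic counterparts Gpd1 (0.54) and Gpd1l (0.42) and the kinase gene Gk5 (0.39, 0.385) were called on the deposited values only. Without either KrasD12 sample 2 were called higher, and without WT A or WT B 0.

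The dystroglycan and syntrophin complex, which anchors Aqp4 in astrocytes, had 2 rises, 2 falls and 3 genes that did neither among 7 of 8 with a row used here (3 higher and 2 lower deposited, median 0.10 deposited and 0.02 quantile). Over all tested genes 22.4% rose and 11.5% fell (50.1% and 11.9% deposited). The dystrobrevins Dtna and Dtnb rose by 0.63 ± 0.09 (limma adjusted p = 0.00311; 0.32 quantile) and 0.54 ± 0.09 (limma adjusted p = 0.00419; 0.35 quantile). Dystrophin (Dmd), below the dim level in all samples, fell by 0.45 ± 0.08 (limma adjusted p = 0.00678; -0.85 quantile), and the syntrophin Sntb1 by 0.35 ± 0.07 (limma adjusted p = 0.00688; -0.72 quantile). Without KrasD12 A 1 was called higher and 1 lower, without KrasD12 B 1 and 0, and without WT A or WT B 0 and 0.

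**Figure D5:**
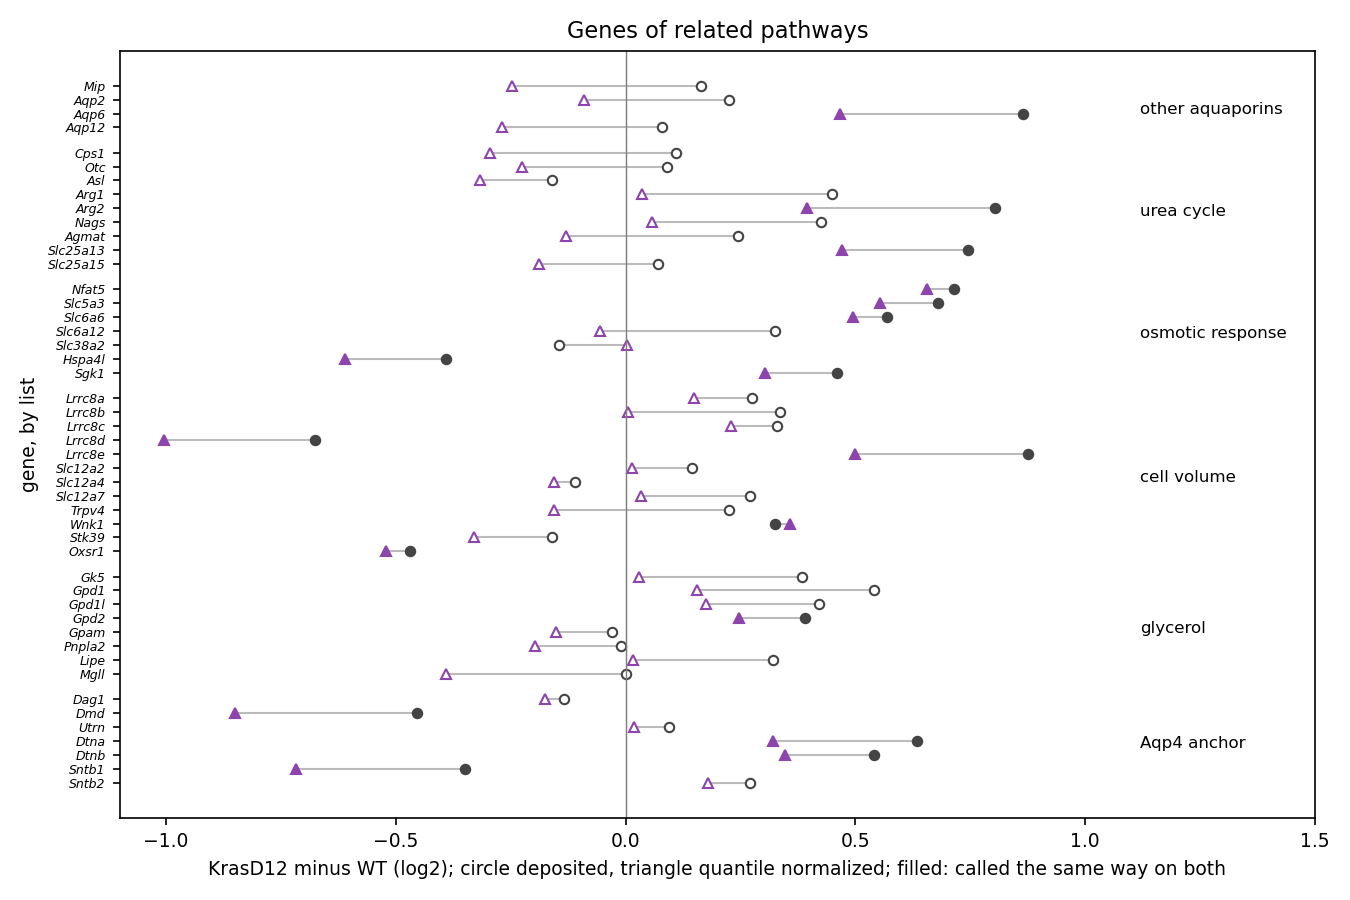
KrasD12 minus WT differences on the log2 scale (horizontal axis) for each gene of 6 lists (rows), with a circle for the deposited and a triangle for the quantile-normalized value, filled where the gene was called in the same direction on both. The osmotic response list has 5 filled genes of 7, 4 of them above 0, and the cell volume list has 2 on each side.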

How the data were processed

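The authors deposited 1 table of log2 expression values from 4 arrays; the unit was read from the values, which run from 2.28 to 14.95. Per the submitters' processing notes, Transcriptome Analysis Console made them. How it corrected background and normalized is not given in the sources. Column medians were 6.24 and 6.26 in KrasD12 and 5.90 and 5.91 in WT, so the columns did not share 1 distribution. Of 28944 rows, 21789 have 1 symbol in the platform annotation, 1621 several and 5534 none. Rows with 1 symbol were used, and the highest-mean row stood for each of the 999 genes with more rows. Current names and gene order come from the mouse gene table (21698 of those rows matched). The test was limma 3.58.1 (R 4.3.3), two-sided, with group as the only term and Benjamini-Hochberg adjustment over 19938 genes, and it was tested on simulated data. Those had independent normal noise and no shift of whole columns, so they do not bear on the unlike column distributions here. Only 2 residual degrees of freedom remain, and the number of arrays limits the precision. Quantile and cyclic loess normalization ran on all rows. Tables and plots used pandas 2.3.3, data.table (1.17.8) and matplotlib 3.10.9. Alternatives were other scalings, a filter on dim genes, a trend or robust eBayes, the mean of a gene's rows, the replicate letter as a block and each sample left out. Cyclic loess and the call on both scalings were added after seeing the data. The 10 genes, the lists and the tests were chosen with earlier results of these data known. Named genes are the 10, the other aquaporins, up to 4 called genes per list by size, the called flanking genes and the 3 nearest profiles. Listed genes without a row of their own are not analysed here.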

Additional observations from a re-analysis of the deposited data

How the results depend on the processing

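Scaling moved the small differences and left that of Slc14a1 nearly as it was, at 5.75 after quantile normalization, 5.53 (5.525) after median centring, 5.72 after cyclic loess and 5.85 to 5.89 with each sample left out in turn. After quantile normalization, median centring and cyclic loess, the counts over all genes were 4485, 3574 and 4533 higher and 4861, 6657 and 4933 lower, and the same direction on deposited and quantile values left 4459 higher. The counts called lower among the 10 genes were 2, 1 and 1 under these scalings. Aqp8 turned to -0.36, -0.30 (-0.305) and -0.37, Aqp9 to -0.27, -0.21 and -0.23, Mip to -0.25, -0.18 and -0.22, Aqp2 to -0.091, -0.12 and -0.09, and Aqp12 to -0.27, -0.26 (-0.265) and -0.28 (-0.285). Median centring alone turned Lrrc8b to -0.01, Gm6133 to -0.05 and Pard6g to -0.05. Under quantile, median centring, cyclic loess and the same call on both scalings, 1, 1, 1 and 1 other aquaporins, 2, 2, 2 and 2 urea cycle genes, 2, 1, 2 and 2 cell volume genes, 1, 0, 1 and 1 glycerol genes and 4, 3, 4 and 4 flanking genes were called higher. Called lower were 2 urea cycle genes under each of the 3 scalings and 1, 3 and 1 glycerol genes. Median centring gave 3 higher and 2 lower osmotic genes, 4 lower cell volume genes, 1 higher and 4 lower anchor genes and 2 lower flanking genes. The filter on dim genes left 1 other aquaporin, 4 flanking genes higher and 1 anchor gene lower. eBayes with a trend called 1 other aquaporin higher and 2 osmotic genes lower. With the replicate letter as a block (replicate block), 1 other aquaporin was called higher, Aqp2 and Arg1 lost their calls and 8 of the 10 genes were called higher; the letters are shared labels only, and A minus B correlated at 0.0132 between the groups across genes. With each sample left out in turn, counts called higher ran from 0 to 4623 over all genes, 0 to 6 among the 10, 0 to 3 osmotic, 0 to 2 cell volume, urea cycle, glycerol and flanking and 0 to 1 anchor genes, and counts called lower from 0 to 1160 over all genes, 0 to 2 cell volume and 0 to 1 anchor genes. Mip then ran from -0.075 (without WT B; -0.01 without KrasD12 B) to 0.405, and Aqp12 from -0.105 (without WT A) to 0.265. Without WT A or WT B limma called 0 genes (smallest adjusted p 0.0552 and 0.053; unadjusted p under 0.05 for 9846 and 10022). With the dim level at the 99th percentile, 2 of the 10 genes lay above it. The cause was not tested.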
